A study of Rattus norvegicus with 20 samples.

Results

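Insulin-like growth factor 2 (Igf2, ENSRNOG00000020369) and insulin-like growth factor binding protein 2 (Igfbp2, ENSRNOG00000016957) were examined in choroid plexus RNA of 20 female Zucker rats. These 2 genes, of the 32883 genes listed for each rat, were chosen by name, as a secreted ligand and a protein that binds it. The rule uses no measured value, though earlier results of these data were known when the choice was made. Zucker rats with 2 mutant copies of the leptin receptor gene (fa/fa) overeat and become obese, whereas the lean rats were heterozygous (+/fa), so every animal carried at least 1 mutant copy. All rats were sampled at 16 weeks of age, and the study asked how obesity, and obesity joined with testosterone, change the tissue that secretes cerebrospinal fluid (CSF). Choroid plexus of the lateral ventricles and of the ventricle at the hindbrain was isolated, and each rat has 1 library. Lean (n = 6) and obese (n = 6) rats were not injected. Obese + TT rats (n = 4, Obese+TT in the plots) received testosterone propionate in sesame oil under the skin, and lean control rats (n = 4, Lean+VEH) received the oil. No obese rats given oil alone and no lean rats given testosterone are among the 20 rats, so that obesity and testosterone cannot be told apart between the injected groups. Injection and cohort cannot be told apart between the injected and the uninjected rats either.

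IGF2 is a peptide growth factor that signals through the IGF1 receptor and the insulin receptor, and the separate IGF2 receptor removes it by carrying it to lysosomes. Igf2 is an imprinted gene, and the choroid plexus and leptomeninges are among the few places in the adult brain where it stays strongly expressed. IGFBP2 is a secreted protein that binds both IGF1 and IGF2, extends their life in body fluids and limits their access to receptors, and it is a major IGF binding protein of CSF.

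The windows of 250 bases before the RefSeq start sites are printed here because both genes are compared across all groups, and androgen is among the agents given. RefSeq's GRCr8 build of the rat genome holds a pair of start sites for Igf2 and a single one for Igfbp2. The abundances were made on another build and are given per gene, so they do not tell the start sites of Igf2 apart. Each window reads 5′ to 3′ on the strand of the gene, and capitals mark matches to a motif that was searched on both strands.
Igf2 start site 1, chr1:207253981-207254230, minus strand: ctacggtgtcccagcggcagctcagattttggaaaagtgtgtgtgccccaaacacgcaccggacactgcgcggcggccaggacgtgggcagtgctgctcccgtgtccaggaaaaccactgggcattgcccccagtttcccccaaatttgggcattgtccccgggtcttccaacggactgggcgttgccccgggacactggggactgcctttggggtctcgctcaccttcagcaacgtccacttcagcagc
Igf2 start site 2, chr1:207250476-207250725, minus strand: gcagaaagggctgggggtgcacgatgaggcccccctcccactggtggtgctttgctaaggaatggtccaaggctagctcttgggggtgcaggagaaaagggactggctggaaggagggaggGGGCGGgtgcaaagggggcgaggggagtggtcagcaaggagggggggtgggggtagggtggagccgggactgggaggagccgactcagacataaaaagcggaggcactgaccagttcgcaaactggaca
Igfbp2, chr9:81864561-81864810, plus strand: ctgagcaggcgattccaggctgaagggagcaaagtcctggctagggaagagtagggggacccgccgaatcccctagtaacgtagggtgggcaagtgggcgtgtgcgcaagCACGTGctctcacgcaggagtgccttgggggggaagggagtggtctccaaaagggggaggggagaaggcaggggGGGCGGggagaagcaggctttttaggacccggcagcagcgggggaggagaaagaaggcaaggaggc
All 3 windows were rich in G and C, with 62.4% at the first Igf2 start site, 63.6% at the second and 64% at Igfbp2, beside a median of 51.2% over 33465 windows of the same length. They held 15, 7 and 11 CpG dinucleotides, beside a median of 5. The GC box GGGCGG, a letter pattern that SP1 family factors bind, lay at bases -129 to -124 before the second Igf2 start site and at bases -66 to -61 before Igfbp2, and 30.5% of all windows hold it. The E-box CACGTG lay at bases -140 to -135 before Igfbp2, and 5.59% of all windows hold it. None of the 3 windows held the letters TATAAA (12.9% of all windows), CCAAT (34.0%) or the androgen receptor half-site TGTTCT (17.5%), which says only that these letters are not in these windows. On the same map Igf2 lies on chromosome 1 beside Ins2, an insulin gene, with the microRNA gene Mir483 inside it, and Igfbp2 lies on chromosome 9 beside Igfbp5, another member of its family.

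The authors deposited transcripts per 1000000 (TPM), which divide out gene length and depth, so levels can be set side by side between genes but read numbers are not known. The uninjected libraries listed 15906 to 16343 genes above 0 and the injected libraries 14968 to 16860. The epithelial transcript Ttr, transthyretin, took 31.2 to 39.3% of all TPM in the uninjected rats and 25.8 to 30.5% in the injected rats, which leaves a larger remainder for every other gene in the injected rats. All 10 named markers of choroid plexus epithelium were present in every rat. Group differences were taken on the scale log2(TPM + 0.1) with limma, a linear model that shares information on spread across genes, and a gene was called where its Benjamini-Hochberg adjusted p over all genes tested was under 0.05.

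Both genes ranked among the most abundant transcripts of the tissue in every rat. Igf2 held rank 41 to 61 of all genes in the uninjected rats and rank 33 to 46 in the injected rats. Igfbp2 held rank 13 to 18 in the uninjected rats and rank 22 to 29 in the injected rats. The binding protein transcript exceeded the ligand transcript in all 20 rats. From rat to rat within a group both were steady, with coefficients of variation of 6.91 to 8.68% for Igf2 and 6.62 to 10.7% for Igfbp2.

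Across the lean rats Igf2 spanned 1268 to 1531 TPM with a median of 1409. In obese rats it spanned 1204 to 1496 TPM with a median of 1401. The 4 lean control rats had 2051, 2022, 1733 and 2044 TPM of Igf2, and the 4 obese + TT rats had 2068, 1976, 2131 and 1753 TPM. All 8 injected rats were thus above all 12 uninjected rats, and within each cohort the obese and lean ranges overlapped. The group means rose in the order obese (1373 ± 119 TPM), lean (1410.4 ± 97.5 TPM), lean control (1962 ± 154 TPM) and obese + TT (1982 ± 166 TPM, all SD). Neither the first pair nor the last pair of neighbours in that order differed beyond its spread, and the step between lean and lean control did.

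For Igfbp2 the lean rats spanned 3181 to 3809.6 TPM with a median of 3765. The obese rats spanned 3673 to 4479.8 TPM with a median of 3881. The lean control rats had 3684, 3329.9, 2854 and 3513 TPM, and the obese + TT rats had 3536, 3711, 3825 and 3253 TPM. The ranges of all 4 groups overlapped, and the 5 highest of the 20 values were those of obese rats. The means stood in the order lean control (3345 ± 358 TPM), obese + TT (3581 ± 249 TPM), lean (3666 ± 243 TPM) and obese (3991 ± 287 TPM, all SD). No tested pair of neighbours in that order differed at an adjusted p under 0.05, and obese + TT against lean was not compared.

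**Figure D1:**
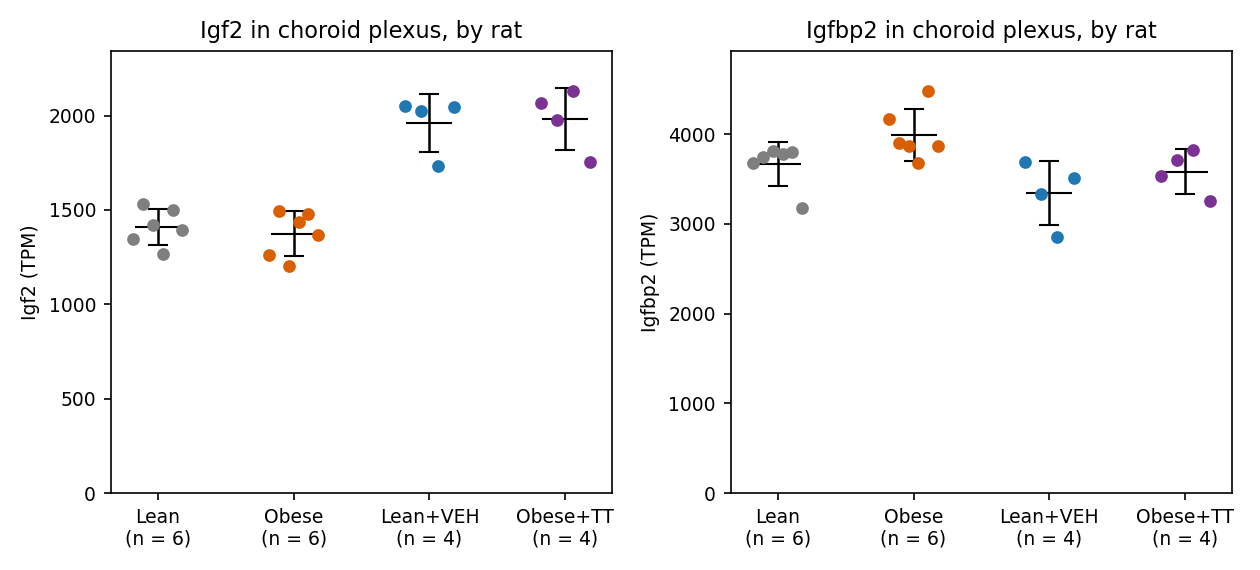
Abundance in TPM of Igf2 (left) and Igfbp2 (right) in each rat, with 1 point per rat and black bars for the mean ± SD of each group. The 8 injected rats sit at 1733 to 2131 TPM of Igf2, above the 12 uninjected rats at 1204 to 1531 TPM, whereas the groups overlap for Igfbp2.

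Obesity without injection was addressed by comparing the 6 obese with the 6 lean rats. Igf2 did not differ detectably between them: the log2 difference, obese minus lean, was -0.04 (standard error 0.07, 95% confidence interval -0.18 to 0.10), a fold of 0.972, with an adjusted p of 0.898 from limma. The exact two-sided permutation test over the rats gave p = 0.55 for Igf2, and 14 of the 36 pairs of an obese and a lean rat were higher in the obese rat. Igfbp2 was 1.09-fold as abundant in the obese rats, a log2 difference of 0.12 (standard error 0.06, 95% confidence interval -0.01 to 0.26). Its adjusted p from limma was 0.587, its unadjusted p was 0.0749, and the exact two-sided permutation test gave p = 0.0411. The obese rat was the higher in 31 of the 36 pairs, and 5 of the 6 obese rats were above every lean rat. The share of genes with an adjusted p under 0.05 was 0.0% of the 15176 tested, and 1466 genes (9.66%) had an unadjusted p under 0.05, so neither gene stood among those called. The study's own test, on gene counts, did call genes in this comparison and between obese + TT and lean control rats. With TPM rescaled without Ttr the unadjusted interval of the Igfbp2 difference left out 0 (0.04 to 0.23, unadjusted p 0.00784), and its adjusted p from limma was 0.231. The interval in FPKM also left out 0 (0.01 to 0.24, unadjusted p 0.0346, adjusted p 0.367 from limma). Without lean rat 6, the lowest in Igfbp2, the log2 difference in TPM was 0.08 (unadjusted p 0.161 from limma). It was 0.09 without obese rat 11 (unadjusted p 0.191) and 0.15 without obese rat 10 (unadjusted p 0.039, adjusted p 0.440 from limma).

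Obesity joined with testosterone was addressed by comparing the 4 obese + TT with the 4 lean control rats. The log2 difference in Igf2, obese + TT minus lean control, was 0.01 (standard error 0.09, 95% confidence interval -0.19 to 0.21), with an adjusted p of 0.981 from limma and p = 0.771 in the exact two-sided permutation test. Its sign turned when TPM were rescaled without Ttr (-0.018). For Igfbp2 the log2 difference was 0.10 (standard error 0.10, 95% confidence interval -0.12 to 0.33), with an adjusted p of 0.848 from limma and p = 0.343 in the exact permutation test. The obese + TT rat was the higher in 10 of 16 pairs for Igf2 and in 12 of 16 pairs for Igfbp2. The smallest p that 4 rats against 4 allow in an exact test is 0.0286. Genes with an adjusted p under 0.05 were 0.0% of the 15259 tested, and 1134 (7.43%) had an unadjusted p under 0.05.

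Whether the contrast between obese and lean rats differed between the cohorts was tested as an interaction in a single fit of the 20 libraries. For Igf2 the injected contrast minus the uninjected contrast was 0.05 on the log2 scale (95% confidence interval -0.17 to 0.28, adjusted p 0.928 from limma). For Igfbp2 it was -0.02 (95% confidence interval -0.25 to 0.21, adjusted p 0.980 from limma). No difference between the contrasts was detectable for either gene. The intervals leave room for folds from 0.887 to 1.22 in Igf2 and from 0.84 to 1.16 in Igfbp2. Of the 15406 genes tested, 0.0% had an adjusted p under 0.05 and 8.36% had an unadjusted p under 0.05.

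The largest differences in Igf2 lay between the cohorts. Igf2 was 1.39-fold higher in lean control than in lean rats, a log2 difference of 0.48 (standard error 0.08, 95% confidence interval 0.31 to 0.64, adjusted p 0.000172 from limma). In obese + TT against obese rats it was 1.44-fold higher, a log2 difference of 0.53 (standard error 0.08, 95% confidence interval 0.35 to 0.71, adjusted p 0.000144 from limma). All 24 pairs of rats went the same way in both comparisons, with p = 0.00476 in each exact two-sided permutation test, the smallest that 6 rats against 4 allow. Such a difference was common in these cohorts: 58.2% of the 15326 genes tested were called between lean control and lean rats, 41.7% as higher and 16.5% as lower, and 34.0% were higher without overlap. In obese + TT against obese rats 58.1% of 15389 genes were called, 41.7% as higher and 16.4% as lower, and 34.1% were higher without overlap. Of the genes averaging at least 10 TPM, 70.5% had a lower log2 difference than Igf2 between the lean groups and 73.5% between the obese groups. Injection, cohort and, in the obese rats, testosterone cannot be told apart here.

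Igfbp2 pointed the other way, and its call depended on how the libraries were scaled. In TPM as deposited the log2 difference of lean control minus lean was -0.14 (standard error 0.09, 95% confidence interval -0.33 to 0.06, adjusted p 0.211 from limma), with p = 0.138 in the exact permutation test. The log2 difference of obese + TT minus obese was -0.16 (standard error 0.07, 95% confidence interval -0.32 to 0.0048, adjusted p 0.0886 from limma), with p = 0.0476 in the exact permutation test. Igfbp2 was thus not called in either comparison, where 16.5% and 16.4% of the genes tested were called lower.

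The median of all genes tested was not at 0 between the cohorts. In TPM it was 0.24 higher on the log2 scale in lean control than in lean rats and 0.25 higher in obese + TT than in obese rats. Rescaling without Ttr lowered these medians to 0.14 and 0.10. FPKM, the other deposited unit, which carries a different scale factor in each library, moved them to -0.0034 and -0.02. Median-of-ratios scaling, which sets each library by the typical ratio of its genes to their mean over libraries, moved them to -0.05 and -0.04. Of the genes called between lean control and lean rats, 71.6% were higher in TPM, 62.6% without Ttr, 49.9% in FPKM and 46.0% with median-of-ratios scaling, and between obese + TT and obese rats the shares were 71.8, 58.6, 48.5 and 46.6%. Each scaling moves all genes of a library by a common factor, so the difference relative to the median of all genes is nearly fixed by construction. On that scale the log2 difference of Igf2 was 0.22 to 0.23 between the lean groups and 0.27 to 0.28 between the obese groups, and that of Igfbp2 was -0.39 to -0.38 and -0.42 to -0.40. Igf2 was higher in the injected rats under all 4 scalings, but was no longer called between the lean groups with median-of-ratios scaling (log2 difference 0.17, adjusted p 0.0567 from limma). Igfbp2 fell in both comparisons under each of the other 3 scalings, by 0.24 to 0.44 on the log2 scale between the lean groups (adjusted p 0.000446 to 0.0169 from limma) and by 0.31 to 0.45 between the obese groups (adjusted p 0.000173 to 0.00161). Under these scalings 21.6 to 31.9% of all genes were called lower between the lean groups and 23.1 to 30.6% between the obese groups.

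**Figure D2:**
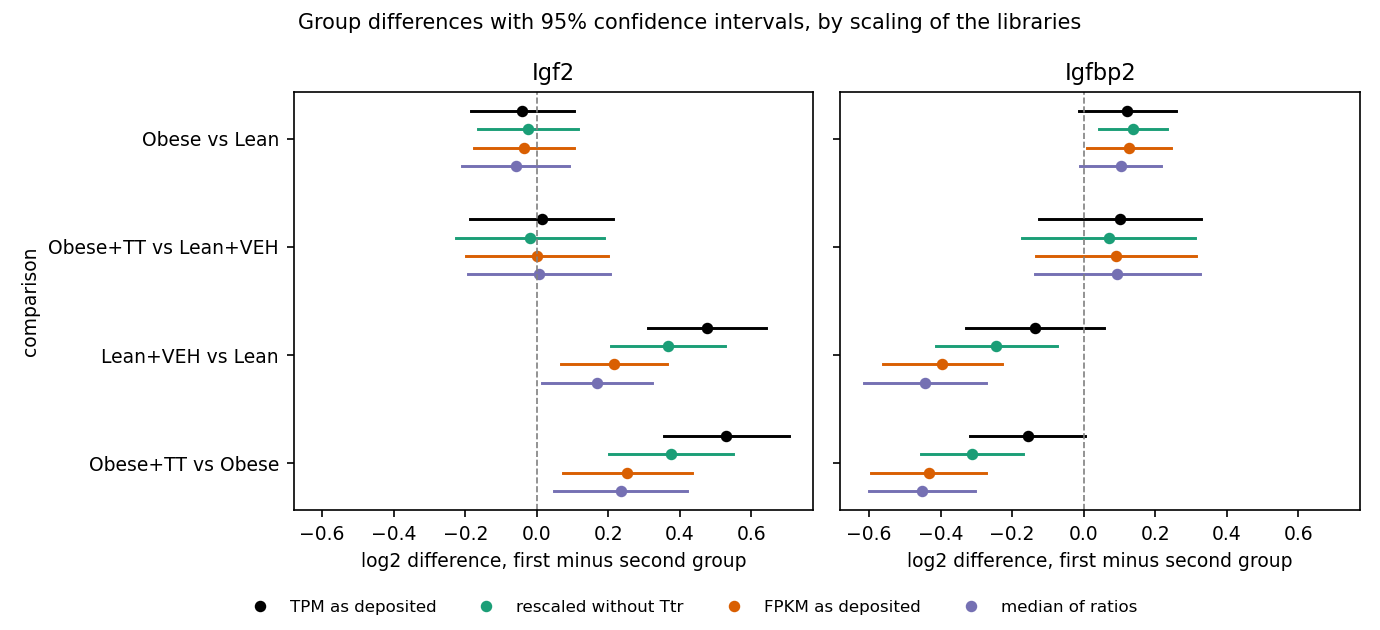
Log2 difference of the first minus the second group (horizontal axis) for Igf2 (left) and Igfbp2 (right) in 4 comparisons (rows), with limma's unadjusted 95% confidence intervals as bars and 1 colour for each scaling of the libraries. Between obese and lean rats Igf2 lies near 0 and Igfbp2 at 0.10 to 0.14 in the uninjected rats, and between the cohorts the points of Igf2 lie right of 0 (0.17 to 0.53) and those of Igfbp2 left of 0 (-0.45 to -0.14) under the 4 scalings shown.

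The ratio of both transcripts within a library does not depend on the scaling. Lean rats had 2.28 to 2.98 Igfbp2 transcripts per Igf2 transcript (mean 2.61 ± 0.24 SD) and obese rats 2.56 to 3.31 (mean 2.92 ± 0.31 SD). Lean control rats had ratios of 1.80, 1.65, 1.65 and 1.72, and obese + TT rats had 1.71, 1.88, 1.80 and 1.86. All 12 uninjected rats were above all 8 injected rats, and the ratio was 0.655 times as high in lean control as in lean rats and 0.622 times as high in obese + TT as in obese rats. Between obese and lean rats it was 1.12 times as high, and between obese + TT and lean control rats 1.06 times, with overlapping ranges in both cases. These ratios are given as a description, without a test. How often ratios of other gene pairs part the cohorts was not examined. Single genes often did: 34.0% were higher and 10.7% lower without overlap between the lean groups, and 34.1 and 11.7% between the obese groups. The separation is therefore not shown to be particular to this pair.

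**Figure D3:**
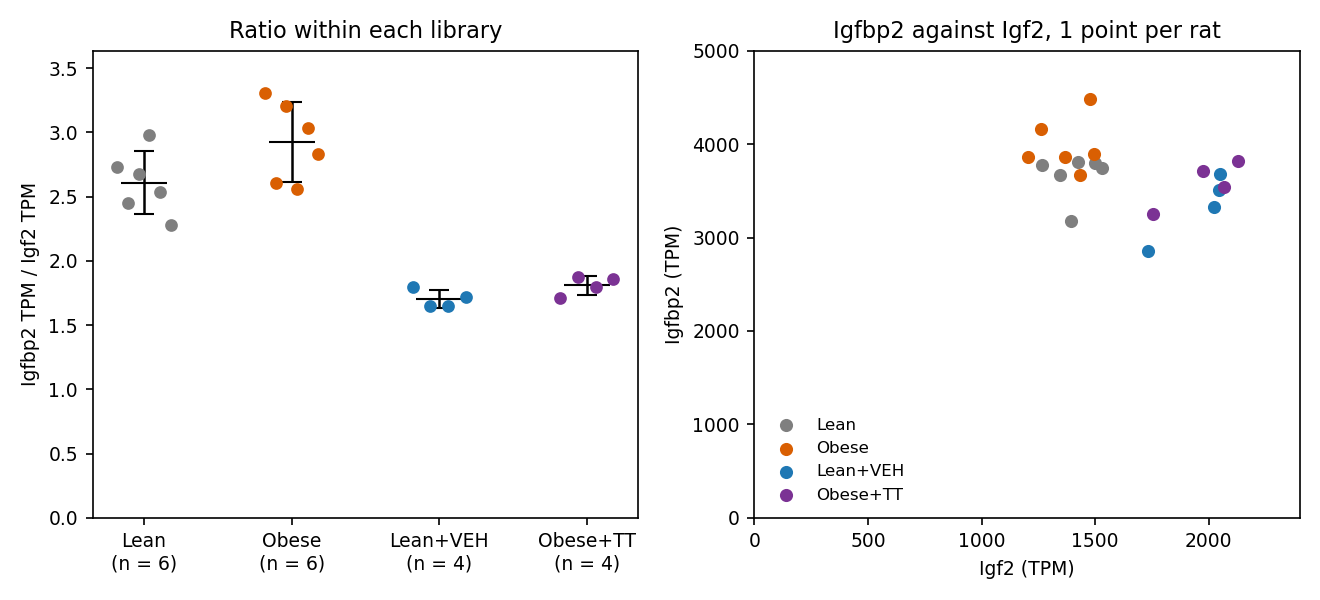
Igfbp2 TPM divided by Igf2 TPM in each rat (left, with the mean ± SD of each group as black bars) and Igfbp2 TPM against Igf2 TPM (right, 1 point per rat, coloured by group). The ratio is 2.28 to 3.31 in the 12 uninjected rats and 1.65 to 1.88 in the 8 injected rats, and the cohorts form separate clouds on the right.

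Markers of other cell types moved with the cohorts as well. Of the 10 epithelial markers, 8 were called higher and 0 lower in lean control against lean rats (median log2 difference 0.47), and 7 were higher and 1 lower in obese + TT against obese rats (median 0.61), where 41.7% of all genes were called higher in each comparison. With FPKM and with median-of-ratios scaling, looked at after the data were seen, 6 were higher and 1 was lower in each of these comparisons, beside 26.7 to 28.9% of all genes called higher. Their summed level, most of which is Ttr, spanned 320320 to 397690 TPM in lean, 331590 to 401010 in obese, 284940 to 317210 in lean control and 270800 to 307590 in obese + TT rats. Kl, which encodes klotho, was at 413, 430, 896 and 953 TPM in the order lean, obese, lean control and obese + TT, and Enpp2, which encodes autotaxin, was at 3931, 3894, 5325 and 6010.2 TPM. Not all of the list rose this way in TPM. Ttr was lower, with log2 differences of -0.23 between the lean groups, not called, and -0.35 between the obese groups (adjusted p 0.0417 from limma). Aqp1 was not called in either comparison (0.13 and 0.24), nor was Otx2 between the obese groups.

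Only 4 of the 11 fibroblast and leptomeningeal markers have a symbol here, and 2 of these were called higher and 2 lower in both comparisons between the cohorts (1 and 2 with FPKM or median-of-ratios scaling), beside 41.7% of all genes called higher and 16.4 to 16.5% lower in TPM. The collagen-binding proteoglycan gene Dcn was at a mean of 92.5 and 88.6 TPM in lean and obese rats and at 10.9 and 9.68 TPM in lean control and obese + TT rats. Ogn, a related proteoglycan gene, was at 222, 210.3, 264 and 264 TPM in the same order. The summed level of the 4 genes overlapped between all groups, at 302 to 382, 303 to 385, 308 to 369 and 309.7 to 371 TPM. Plvap, the only endothelial marker with a symbol of 8, was at 39.95 to 60.3 TPM in the uninjected rats and at 1.68 to 10.6 TPM in the injected rats. The summed level of Rgs5 and Myh11, which mark mural cells (2 of 6 with a symbol), was 81.6 to 135 TPM in the uninjected and 8.09 to 17.4 TPM in the injected rats. Rgs5 carried that sum, with means of 99.7, 99.8, 5.51 and 4.11 TPM in the order lean, obese, lean control and obese + TT, whereas Myh11, at 8.50, 9.92, 7.70 and 4.56 TPM, was called lower only in obese + TT against obese rats (log2 difference -1.07, adjusted p 0.000289 from limma). Cd74, the single named immune marker of 8, was at 134 to 218 and 26.4 to 87.0 TPM, and Gja1, the single named astrocyte marker of 5, at 4.79 to 9.12 and 1.21 to 3.39 TPM. The 2 named ependymal markers (of 4) and 3 haemoglobin genes (of 4 blood markers) were not called in any comparison in TPM, though both ependymal markers were lower in the injected rats with FPKM and with median-of-ratios scaling, and 2 haemoglobin genes lower in lean control rats with the same scalings. No marker of neurons or oligodendrocytes has a symbol here. None of the named markers was listed at 0 in any rat, and no marker was called between obese and lean rats in either cohort. The part of these cell types in the Igf2 and Igfbp2 values was not tested, and in bulk tissue fewer cells of a type and less RNA per cell cannot be told apart.

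From rat to rat the relation of both transcripts was examined within each cohort, as 4 coefficients on log2 TPM. Among the 12 uninjected rats Igf2 and Igfbp2 showed no detectable relation, with Pearson's r = -0.02 (permutation p = 0.952, Benjamini-Hochberg adjusted p = 0.952) and Spearman's rho = -0.08 (permutation p = 0.800, adjusted p = 0.952). Without the 2 rats farthest from the median of Igf2, r was 0.26 (permutation p = 0.474). Among the 8 injected rats Pearson's r was 0.84 (exact permutation p = 0.00655, adjusted p = 0.0262) and Spearman's rho was 0.74 (exact permutation p = 0.0458, adjusted p = 0.0917). With TPM rescaled without Ttr r was still 0.84 (exact permutation p = 0.0176), whereas rho was 0.36 (exact permutation p = 0.389). The 2 injected rats farthest from the median of Igf2 were lean control rat 15 and obese + TT rat 20, lowest in both genes within their groups. Without them r was 0.36 (exact permutation p = 0.496, n = 6). Leaving out the extremes narrows the range of Igf2, which tends to lower r, so this cannot show whether the relation rests on them. The rats of a cohort come from 2 groups each, and after the group means were subtracted r was 0.10 in the uninjected and 0.89 in the injected rats. The permutation p of the latter was 0.0102, but it exchanged rats across the 2 groups, so it is only approximate.

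Of a list of 42 genes of the IGF system and of imprinted genes of growth, 9 have a symbol in the sources used here: the ligand gene Igf1, the binding protein genes Igfbp3, Igfbp7 and Igfbpl1, the kinase genes Akt1 and Akt2 that act downstream of the receptors, and the imprinted genes Cdkn1c, Mest and Peg3. The receptors and the binding protein genes Igfbp1, Igfbp4, Igfbp5 and Igfbp6 were not among them. Igf1 and Mest have a symbol only because the study's own list of differential genes holds them, and that list, chosen on these rats, also holds Cdkn1c and Peg3. The study drew that list from gene counts, where it called genes in both comparisons of obese with lean rats. Limma on TPM called 0 of the 9 genes between obese and lean rats in either cohort, as it called none of all genes. In lean control against lean rats 2 were called higher, 2 lower and 5 were not called, with a median log2 difference of 0.02 beside 0.24 for all genes, of which 41.7% were called higher and 16.5% lower. In obese + TT against obese rats 3 were called higher, 3 lower and 3 were not called, with a median of -0.0048 beside 0.25 for all genes, of which 41.7% were called higher and 16.4% lower. Igf1 is among these 3 lower genes, and Mest is among the 2 higher in lean control rats, so both counts rest in part on the study's list. Igfbp3 and Igfbp7 (lower) and Peg3 (higher) were called in both comparisons under all 4 scalings, and the calls of the other genes are given with the scalings that end them.

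Igf1, whose peptide shares receptors and binding proteins with IGF2, was scarce in every rat. Its level spanned 1.08 to 2.36 TPM in the lean and 1.04 to 3.45 TPM in the obese group, and was 0.09, 2, 2.99 and 0.51 TPM in lean control and 0.91, 0.29, 0.38 and 0.32 TPM in obese + TT rats. The obese + TT rats were all below the obese rats (log2 difference -1.74, adjusted p 0.00132 from limma, and called under all 4 scalings), where 11.7% of all genes were lower without overlap and 16.4% were called lower, whereas the lean control rats spread over both sides of the lean range. Igf1 is named here only through a list chosen on these rats, so its call is not independent of that choice. Its levels are also low beside the 0.1 TPM added before the log, and the nearest values of the obese + TT and obese groups were 0.91 and 1.04 TPM.

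The 3 other binding protein genes with a symbol were far below Igfbp2 in level, and the rest of the family was not analysed here. Igfbp3, the main carrier of IGFs in blood, averaged 59.6 ± 4.69 TPM (SD, n = 6) in the lean group and 48.5 ± 5.07 TPM (SD, n = 6) in the obese group. The lean control rats had 5.91, 1.78, 1.68 and 4.21 TPM of Igfbp3 and the obese + TT rats 3.41, 3.47, 2.67 and 3.35 TPM. Its log2 difference was -4.29 for lean control minus lean (adjusted p 2.25e-07 from limma) and -3.87 for obese + TT minus obese (adjusted p 1.04e-09), with no overlap in either, as in 10.7% and 11.7% of the genes tested that were lower. Obese minus lean was -0.30 for Igfbp3 (unadjusted p 0.00158, adjusted p 0.247 from limma, exact permutation p = 0.00433), which did not pass the adjusted threshold. Igfbp7, which encodes a related protein of low affinity for IGFs that is abundant around vessels, was at 204 ± 14.8 and 220 ± 16.9 TPM in lean and obese rats and at 61.7 ± 15.4 and 65.6 ± 6.21 TPM in lean control and obese + TT rats. It fell by 1.75 on the log2 scale in both comparisons between the cohorts (adjusted p 3.63e-07 and 2.52e-08 from limma). Igfbpl1, encoding an IGFBP-like protein, was at 91.3, 96.3, 102 and 106 TPM in the order lean, obese, lean control and obese + TT and was not called in any comparison under any of the 4 scalings. Igfbp2 made up 91.2 ± 0.24% and 91.6 ± 0.56% of the summed TPM of only these 4 binding protein genes in lean and obese rats and 95.3 ± 0.24% and 95.3 ± 0.26% in lean control and obese + TT rats (SD).

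Akt1 had group means of 81.2 to 85.7 TPM and was not called in any comparison in TPM, but was called lower in the injected rats with FPKM (log2 differences -0.30 between the lean and -0.28 between the obese groups) and with median-of-ratios scaling (-0.35 and -0.30), and without Ttr between the lean groups (-0.15). Akt2 averaged 45.0 ± 4.24 TPM in the lean and 36.6 ± 5.33 TPM in the obese group (SD, unadjusted p 0.00537, adjusted p 0.310 from limma). At 51.9 ± 6.52 TPM in the obese + TT rats it was called higher than in obese rats (log2 difference 0.51, adjusted p 0.00227 from limma), a call lost with FPKM (0.23) and median-of-ratios scaling (0.21).

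Among the imprinted genes, Peg3, a paternally expressed zinc finger gene, was at 37.9 ± 6.66 and 40.7 ± 10.3 TPM in lean and obese rats and at 109 ± 10.3 and 85.8 ± 10.9 TPM in lean control and obese + TT rats. It was called higher in both comparisons between the cohorts, with log2 differences of 1.54 and 1.11 (adjusted p 7.86e-07 and 0.000205 from limma). Mest, also paternally expressed, spanned 20.0 to 39.9 TPM in the lean and 33.5 to 74.7 TPM in the obese group, and the log2 difference of 0.73 had an unadjusted p of 0.00421 and an adjusted p of 0.295 from limma. Between lean control rats (39.0 to 55.7 TPM) and lean rats it was called higher, with a log2 difference of 0.64 (adjusted p 0.0127 from limma), a call lost with FPKM (0.38) and median-of-ratios scaling (0.34). In obese + TT against obese rats its log2 difference was -0.38 in TPM, not called, and it was called lower under the other 3 scalings (-0.67 to -0.53). The difference of the Mest contrasts between the cohorts was -1.02 on the log2 scale (unadjusted p 0.0032, adjusted p 0.377 from limma). Cdkn1c, a maternally expressed inhibitor of the cell cycle, was at 146, 128, 122 and 157 TPM in lean control and at 162, 187, 190.5 and 164 TPM in obese + TT rats. The obese + TT rats were all above the lean control rats, as in 2.37% of the genes tested (log2 difference 0.35, adjusted p 0.510 from limma, exact permutation p = 0.0286). Against the obese rats Cdkn1c was called higher in the obese + TT rats, with a log2 difference of 0.41 (adjusted p 0.00159 from limma), a call lost with FPKM (0.13) and median-of-ratios scaling (0.11). Between the lean groups it was called only with median-of-ratios scaling, as lower in the lean control rats (-0.28).

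**Figure D4:**
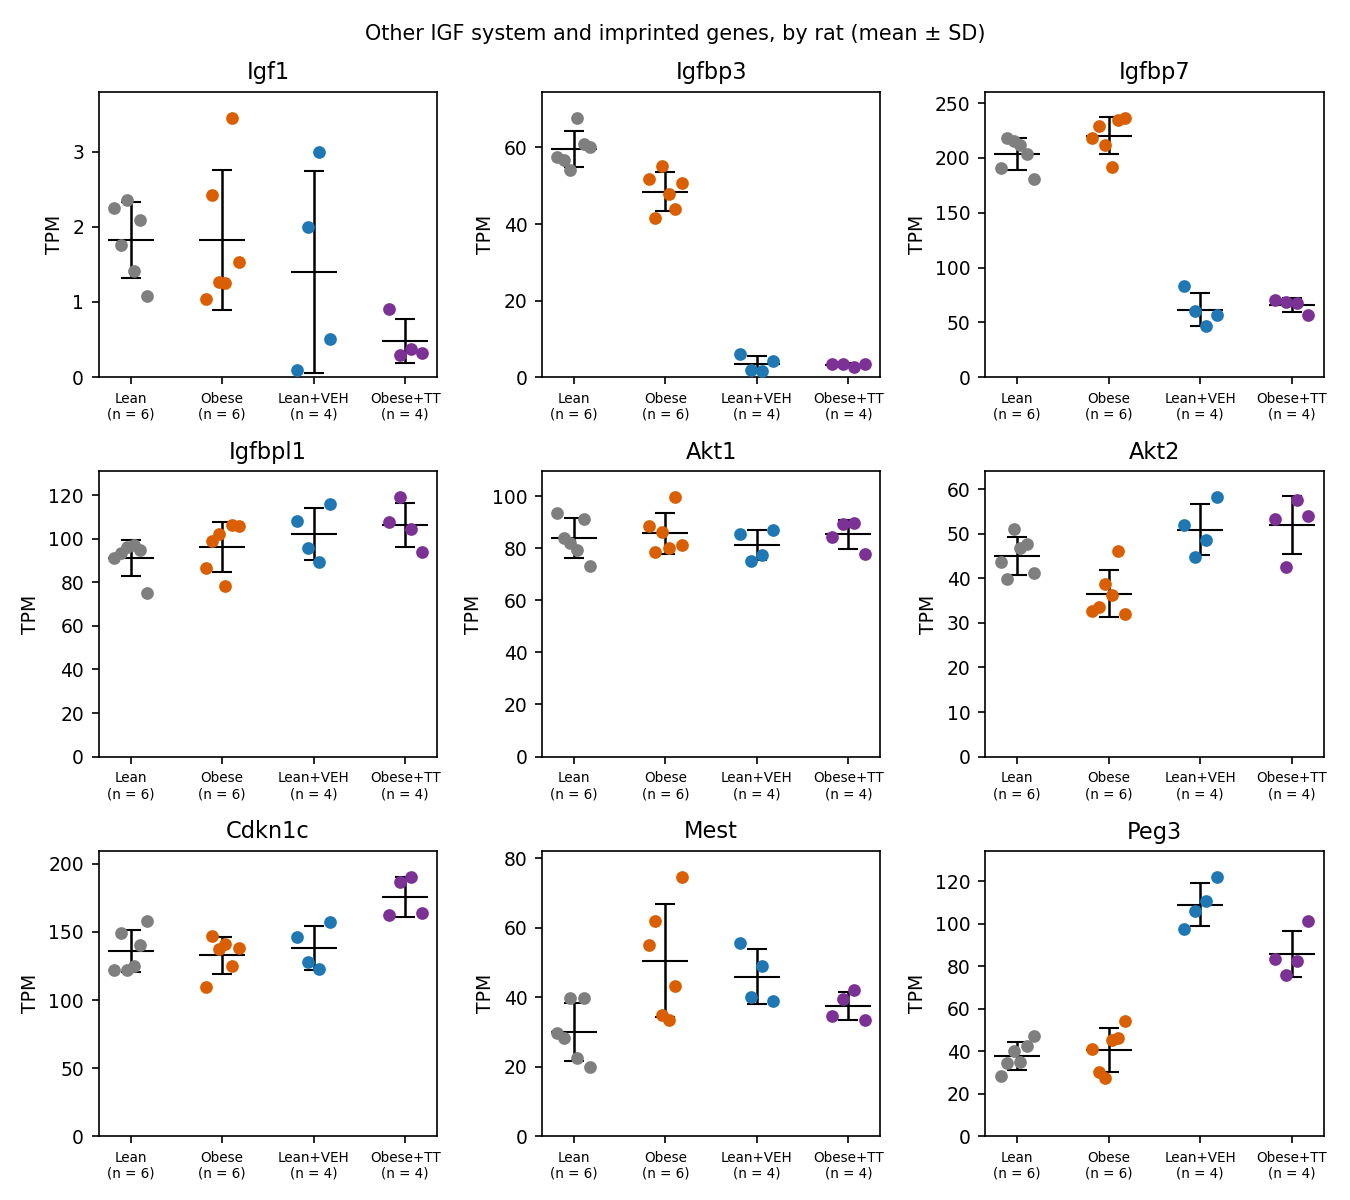
Abundance in TPM of the 9 other IGF system and imprinted genes with a symbol, with 1 point per rat and black bars for the mean ± SD of each group. Igfbp3 and Igfbp7 sit far lower, and Peg3 higher, in both injected groups, whereas the 4 groups overlap for Igfbpl1 and Akt1.

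The genes whose log2 TPM followed each member most closely over the 20 libraries were found among 2362 named genes averaging at least 10 TPM. These correlations describe libraries that share a cohort, a scaling and a depth, and carry no test. Closest to Igf2 were Pgpep1 (Pearson's r 0.96), Dag1 (0.96), Psap (0.96) and Cnnm3 (0.95). Psap encodes the precursor of lysosomal saposins, and Dag1 encodes dystroglycan. Igfbp2 stood at place 1549 of this order, with r = -0.36, a pooled value that includes the shift of both genes between the cohorts. Within the cohorts r was -0.02 in the uninjected and 0.84 in the injected rats, with the limits given above. After the mean of each group was subtracted, the closest to Igf2 were Crtapl1 (0.73), Cnnm3 (0.72), Shisa5 (0.71), Pgpep1 (0.70) and Tmem98 (0.70), so that Cnnm3 and Pgpep1 stood among the closest in both orders.

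For Igfbp2 the closest genes over the 20 libraries were Oaz1 (Pearson's r 0.83), Trappc5 (0.83), LOC102556347 (0.83), Gnb2 (0.81) and Gipc1 (0.81). Oaz1 encodes ornithine decarboxylase antizyme, and Gnb2 a beta subunit of heterotrimeric G proteins. After the mean of each group was subtracted they were Bsg (0.89), Plbd2 (0.85), Srsf2 (0.85), Ctsd (0.84) and Loxl1 (0.83). Bsg encodes basigin, a membrane partner of monocarboxylate transporters, and Ctsd encodes the lysosomal protease cathepsin D. Igf2 stood at place 703 of this second order, with r = 0.46, and Igfbp2 at place 184 of that around Igf2.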

How the data were processed

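Choroid plexus RNA of 20 rats was sequenced by the study on an Illumina NovaSeq as paired-end reads. The submitters' processing notes list STAR 2.7.9a and RSEM 1.3.3 and the build Rnor_6.0, and the study's methods state that reads were mapped with STAR and that DESeq2 was run on gene counts, which were not used here. The authors deposited TPM for each rat, scaled to the same sum in every library, and the deposited FPKM is proportional to TPM within a library. Which program computed either unit is not given in the sources used here beyond that list.

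Symbols came from the study's supplementary tables, which name 2616 of the 32883 gene identifiers, so lists of genes are counted only over named members. Ratios of low FPKM were compared in 190 pairs of libraries. The fullest bin of 0.04 on the log2 scale held 2.61 to 6.77% of genes, and no whole reads were recovered. The study states a sequencing output, but the number of reads in each library is not known. At most 1.92% of genes had identical TPM in any of 42 pairs of libraries of the same group, so that no duplicate library was found.

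Groups were taken from the sample labels. Log2(TPM + 0.1) was fitted for genes averaging 0.1 TPM or more over the libraries of a comparison with limma 3.58.1 in R 4.3.3 (eBayes with trend), on the groups compared, with Benjamini-Hochberg adjustment over all genes tested and a threshold of 0.05. The difference of contrasts used all 20 libraries. Fold changes are on that log2 scale. Exact permutation tests were two-sided. Rats are separate animals, so p-values measure the spread between animals. Each cohort was sampled once, so in comparisons between the cohorts they leave out any spread from cohort to cohort. The fit was tested on simulated data. Start site windows and their motifs came from RefSeq's GRCr8 tables. Figures were drawn with matplotlib 3.10.9 in Python 3.11.15. Alternatives were the pseudocount (1), the filter on low values (1 TPM or none), rescaling without Ttr, median-of-ratios scaling, FPKM, no trend, robust eBayes, a fit of all libraries, and leaving out each rat. The scalings were applied to the other named genes and markers after the data were seen.

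The members, gene lists and marker lists were chosen with earlier results of these data known. Genes named besides both members are those of the IGF system and marker lists that have a symbol, and the 5 genes most like each member, of which 1 is not reported here.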

Additional observations from a re-analysis of the deposited data

Results flagged for a closer look

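Among 48 combinations of a group and a quantity (the TPM of a gene, or the ratio of Igfbp2 to Igf2) checked for a rat far from the rest of its group, 5 stood out, where chance alone gives about 2.4 (1 in 20). In lean control rat 15 Igf2 stood at 1733 TPM, below 2022 to 2051 TPM in the other rats of that group. Igfbp2 stood at 3181 TPM in lean rat 6, below 3674 to 3809.6 TPM in the other lean rats, and Igfbpl1 was at 75.1 TPM in the same rat, below 91.2 to 97.2 TPM. Ttr took 39.0% of TPM in that rat, the largest share among the lean rats. In obese + TT rat 17 Igf1 stood at 0.91 TPM, above 0.29 to 0.38 TPM in the others. In obese + TT rat 19 Igfbp3 stood at 2.67 TPM, below 3.35 to 3.47 TPM in the others.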

How the results depend on the processing

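Depth is unknown and 4 to 6 rats per group limit the precision, so small differences in Igf2 or Igfbp2 could not be detected, and between the cohorts a scaling can decide a call. No paired analysis was possible because the rats carry the numbers 1 to 20, each in a single group.

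The difference in Igf2 between lean control and lean rats was no longer called with median-of-ratios scaling (0.17 on the log2 scale). Igfbp2 was called lower in lean control than in lean rats when TPM were rescaled without Ttr (-0.24), with median-of-ratios scaling (-0.44) and with FPKM (-0.40), and lower in obese + TT than in obese rats under the same settings (-0.31, -0.45 and -0.43). These scalings move the median of all genes. The Igf2 difference between obese + TT and lean control rats turned to -0.018 with TPM rescaled without Ttr. The number of genes called between obese and lean rats, 0 in TPM, was 1 with median-of-ratios scaling, 1 with FPKM and 3 in a fit of all 20 libraries, and between obese + TT and lean control rats 6 in that fit. For the difference of the contrasts it was 1 at a minimum mean of 1 TPM, 10 without Ttr, 2 with median-of-ratios scaling, 2 with FPKM and 1 with robust eBayes. The cause was not tested.

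Among uninjected rats, Pearson's r of Igf2 and Igfbp2 turned to 0.10 after group means were subtracted and to 0.26 without the 2 farthest rats, and Spearman's rho to 0.15 and 0.24. Among injected rats, without the 2 farthest rats r was 0.36 and rho 0.37. Without Ttr rho was 0.36, whereas r was still 0.84.

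Leaving out each rat in turn gave 0 to 1 genes called between obese and lean rats, 0 to 25 between obese + TT and lean control rats, 0 to 14 for the difference of the contrasts (25 and 14 without lean control rat 13), 8206 to 8822 between lean control and lean rats and 8244 to 8908 between obese + TT and obese rats. For Igf2 the log2 differences ranged from -0.07 to -0.0035 for obese minus lean, from -0.045 to 0.072 for obese + TT minus lean control (below 0 without lean control rat 15, -0.045, obese + TT rat 17, -0.0080, or obese + TT rat 19, -0.022), from -0.0044 to 0.11 for the difference of the contrasts (below 0 without lean control rat 15), from 0.45 to 0.53 for lean control minus lean and from 0.49 to 0.59 for obese + TT minus obese. For Igfbp2 they ranged from 0.08 to 0.15, from 0.03 to 0.15, from -0.094 to 0.028, from -0.18 to -0.06 and from -0.19 to -0.11 in the same order. The difference of the contrasts in Igfbp2 was above 0 without lean rat 6, obese rat 11, lean control rats 13 or 16, or obese + TT rat 20. Without obese rat 10 Igfbp2 was called lower in obese + TT than in obese rats (-0.18, adjusted p 0.049 from limma).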
